A study of Mus musculus with 12 samples.

Results

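The antimicrobial and alarmin genes analysed were 10, S100a8, S100a9, S100a7a, Lcn2, Slpi, Camp, Defb1, Defb3, Defb4 and Defb14, out of the 55487 genes in the deposited tables. They were chosen by name as genes of antimicrobial proteins and alarmins, and each name matched 1 row of every table. RNA was sequenced from full-thickness skin wounds of male C57BL/6JNarl mice that received Pluronic F127 gel once daily, either alone (the sham group) or with 10 µM capsaicin (CAP, an agonist of the TRPV1 channel). Each of the 4 groups, sham and CAP at day 3 and at day 6 after wounding, holds 3 libraries, so 12 libraries were compared. All wounds carried the gel, and unwounded or gel-free skin was not analysed here. Mice carried a pair of wounds, and nothing in the labels or methods ties a library to a mouse, so p-values measure the spread between libraries, which may be technical.

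Antimicrobial proteins and alarmins are made by keratinocytes at the wound edge and by leukocytes that enter the wound. S100A8 and S100A9 form calprotectin, which withholds zinc and manganese from microbes and signals through TLR4 and RAGE when released. Lipocalin 2 binds the siderophores with which bacteria take up iron, SLPI inhibits neutrophil elastase and cathepsin G, and cathelicidin (Camp) and the beta-defensins damage microbial membranes. Several of these genes are known to be induced in keratinocytes by IL-17, IL-22 and IL-1, and calprotectin is also abundant in neutrophils.

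Expression was measured as TPM, the share of a gene among a library's transcripts, corrected for gene length and scaled to the same total in every library. The deposited values carry no read counts, so depth is unknown and no counting interval can be given. A value of 0.0001 TPM stands in place of 0, and such a gene is called listed at 0 here. Over all genes, 17 were listed at 0 in some library although the other libraries averaged 5 TPM or more, so a listed 0 may be a failed estimate. Beside these, 12341 genes averaged 5 TPM or more over all 12 libraries. Each library had 18533 to 19325 genes at 0.3 TPM or more, and mitochondrial transcripts made up 5.21% to 6.56%. The labelled tissue was checked against keratins and fibroblast genes, and the summed TPM of Krt5, Krt14, Trp63 and Col17a1 was between 12322 and 28579 in every library, and that of 5 fibroblast genes between 8589 and 21431.

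Summed over the 10 genes, TPM came to 0.0339% to 0.627% of each library's total, and S100a8 and S100a9 made up 67.4% to 93.5% of that share. S100a9 and S100a8 ranked first and second by mean TPM in all 4 groups, Lcn2 followed them, and Camp ranked last. Ranges of S100a8 and Lcn2 overlapped only in CAP-treated wounds of day 6, while those of S100a9 and S100a8 overlapped in every group. Slpi, Defb1 and Defb14 took the ranks between Lcn2 and S100a7a, and their ranges overlapped at day 3. Defb3 and Defb4 stood below S100a7a, and their ranges did not overlap in CAP-treated wounds of day 3 or in sham wounds of day 6.

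**Figure D1:**
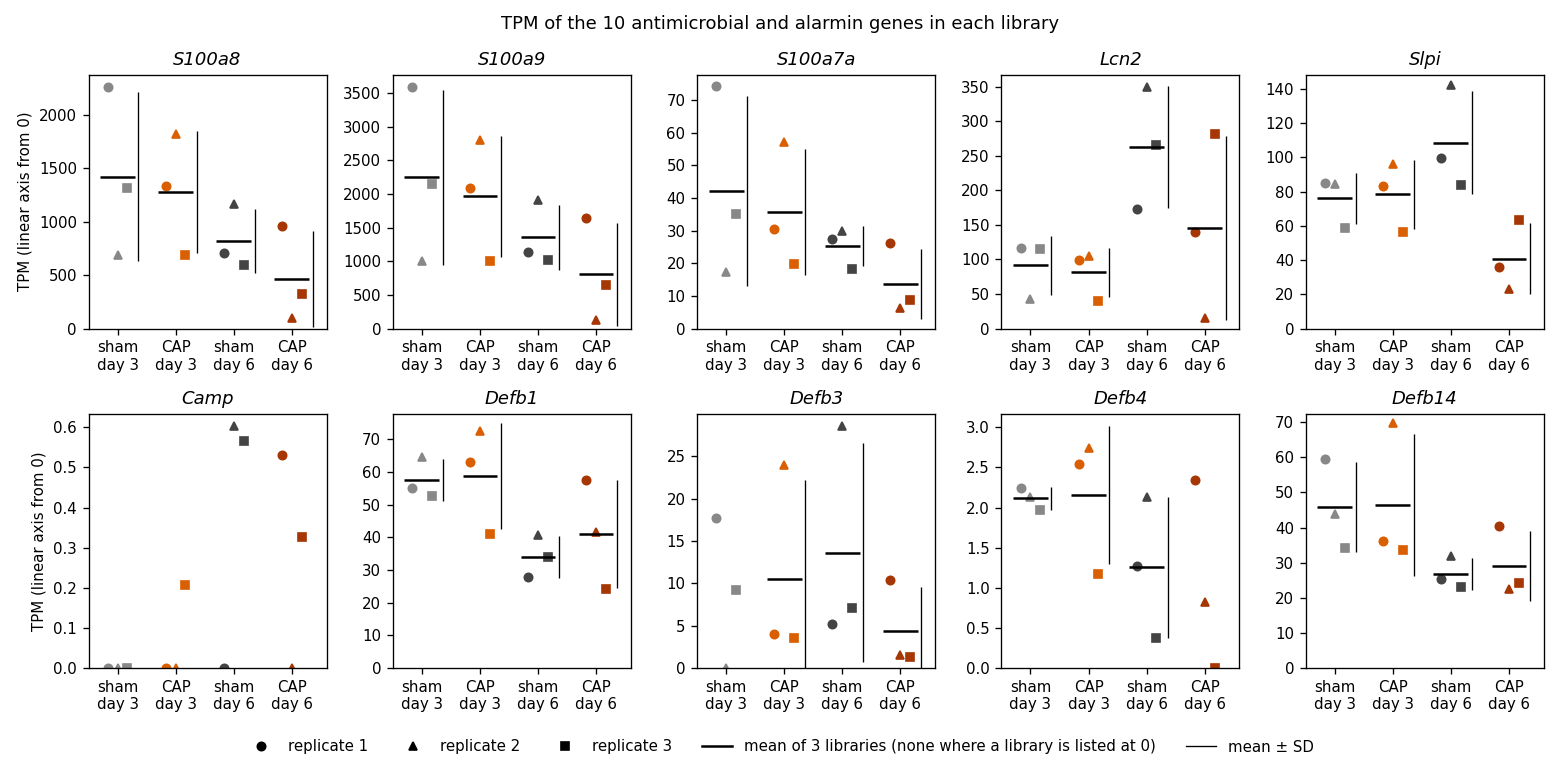
TPM of each of the 10 genes in the 12 libraries, on linear axes from 0. Symbols are libraries, horizontal lines are means and vertical lines are mean ± SD over 3 libraries, left out where a library is listed at 0. The 3 CAP-treated libraries of day 6 lie below all 3 sham libraries of day 6 for Slpi, and replicate 2 of that CAP group is lowest of 12 for 6 genes.

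S100a7a, S100a8 and S100a9 lie next to each other on chromosome 3 in the epidermal differentiation region, within 41.7 kb of GRCm38. S100a7a spans chr3:90654017-90658669 and S100a8 spans chr3:90668978-90670035, both on the plus strand, and S100a9 spans chr3:90692632-90695721 on the minus strand. Defb14, Defb4 and Defb3 lie within 100.9 kb on the plus strand of chromosome 8, at chr8:19194357-19195212, chr8:19198706-19201545 and chr8:19293360-19295291. Defb1 lies at chr8:21776599-21795185. Lcn2 (chr2:32384633-32388252), Slpi (chr2:164354070-164389095) and Camp (chr9:109847379-109849617) are on minus strands. All are protein-coding genes of GENCODE M21. Slpi overlaps Mir7678 on the same strand. Stretches of 31 bases that also occur in transcripts of another gene made up 9.91% of the stretches of Defb4 and 1.63% of those of Defb3, both shared mostly with Defb8, and 7.72% of those of S100a7a, shared mostly with Zfp36. How far this sharing affects the levels of these 3 genes was not tested, and Defb8 itself was listed at 0 in all 12 libraries. The only GENCODE transcripts of Defb14 and Defb3 are 204 and 275 bases long. The effect of such short lengths on length-corrected TPM, and on ranks by TPM, was not tested.

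RefSeq promoters on GRCm38.p6 were given for 7 of the 10 genes. The sequences before the RefSeq starts of the 3 neighbouring S100 genes, which moved together, and of Slpi are shown. Slpi was taken for its lower level in CAP-treated libraries at day 6 (limma adjusted p = 0.206). The sequences run 5′ to 3′ on the strand of the gene, without bases that GENCODE places in an exon of that gene. Capitals mark a match to a motif described beneath. The S100a8 sequence is chr3:90668821-90668977 (plus strand), that of S100a9 is chr3:90695722-90695971 (minus strand), that of S100a7a is chr3:90654099-90654286 (plus strand) and that of Slpi is chr2:164356508-164356757 (minus strand). The stretches of S100a7a and Slpi lie inside their longer GENCODE genes, between exons.
S100a8: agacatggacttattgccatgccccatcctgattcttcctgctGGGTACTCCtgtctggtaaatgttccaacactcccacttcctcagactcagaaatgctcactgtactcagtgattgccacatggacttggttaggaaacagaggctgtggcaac
S100a9: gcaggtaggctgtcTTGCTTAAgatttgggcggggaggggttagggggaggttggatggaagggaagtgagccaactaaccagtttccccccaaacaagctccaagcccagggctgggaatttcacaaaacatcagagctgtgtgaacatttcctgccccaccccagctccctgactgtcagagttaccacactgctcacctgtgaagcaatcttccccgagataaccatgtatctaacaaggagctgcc
S100a7a: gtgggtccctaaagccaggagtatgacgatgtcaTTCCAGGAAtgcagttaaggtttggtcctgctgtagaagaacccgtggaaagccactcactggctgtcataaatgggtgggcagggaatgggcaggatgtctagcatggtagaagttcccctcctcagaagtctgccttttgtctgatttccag
Slpi: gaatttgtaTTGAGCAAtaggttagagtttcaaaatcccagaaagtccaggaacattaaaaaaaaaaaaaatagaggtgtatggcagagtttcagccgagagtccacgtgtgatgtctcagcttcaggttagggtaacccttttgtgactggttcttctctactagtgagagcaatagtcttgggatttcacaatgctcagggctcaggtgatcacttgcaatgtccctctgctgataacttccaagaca

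Letters of 5 motifs were searched on both strands of the 250 bases before each start. TTGCNNAA, a form of the C/EBP site, is in 9.56% of all 32851 RefSeq promoters, and occurs in the promoters of S100a9, Lcn2, Slpi and Defb3. GGGNNNTCC, a loose form of the NF-kB site, is in 15.2% and occurs in those of S100a8 and Lcn2. TTCNNNGAA, the STAT site, is in 7.02% and occurs in that of S100a7a. TATAAA, in 12.4% of promoters, occurs in that of S100a8 within the bases not shown, and TGANTCA, the AP-1 site found in 6.75%, occurs in none of the 7. No motif of the 5 was shared by all 3 S100 genes. A match describes letters only.

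At day 3 none of the 9 genes tested passed the threshold of the study, an unadjusted p under 0.05 with at least a 2-fold difference, where 1.58% of all 18330 tested genes did. The study applied this threshold to results of DESeq or DESeq2, whereas limma on TPM was used here, so the calls can differ. The 9 genes averaged 0.3 TPM or more in each group, and Camp did not. Differences were taken on log2(TPM + 0.1) and tested with limma over all genes, and this scale understates changes of low genes. For none of the 9 did the groups stay apart, against 11.6% of all tested genes.

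S100a8 measured 2260, 690 and 1314 TPM in the sham libraries of day 3 and 1329, 1820 and 684 TPM in the CAP-treated ones. S100a9 measured 3595, 1004 and 2151 TPM against 2093, 2799 and 1011 TPM. The ranges overlapped throughout, with the lowest values of both groups nearly equal. The log2 difference, CAP minus sham, was -0.10 (SE 0.51) for S100a8, with a 95% interval of -1.30 to 1.10.

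The groups of Lcn2 and Slpi overlapped at day 3 too. Lcn2 was 116, 42.5 and 115 TPM in sham and 98.6, 105 and 39.9 TPM in CAP-treated wounds. Slpi was 85.1, 84.5 and 58.9 TPM in sham and 83.2, 95.9 and 56.3 TPM in CAP-treated wounds. The interval for Slpi, -0.52 to 0.58 on the log2 scale, leaves differences below 2-fold in both directions. Log2 differences of 8 of the 9 genes lay between -0.15 and 0.03, and that of Defb3 was 1.49 with an SE of 1.92. One sham library was listed at 0 for Defb3, so its difference depends on the added 0.1 TPM.

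At day 6 Slpi fell in CAP-treated wounds, while S100a8, S100a9, S100a7a and Lcn2 had lower means with overlapping groups. Slpi was the only 1 of 9 genes past the threshold, which 3.8% of all 18323 tested genes passed, 2.34% as lower. The median log2 difference of the 9 genes was -1.33, beside -0.12 for all tested genes. That median is the value of S100a9, which ran from -2.16 to -0.33 when each library was left out. The genes are not independent, since the 3 S100 genes moved together and CAP replicate 2 was lowest of 12 for 6 genes. After scaling each library by its median ratio, the median of all genes was -0.02, and the split of genes past the threshold went from 268 higher and 429 lower to 388 higher and 303 lower.

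Slpi, the inhibitor of neutrophil elastase, measured 99.6, 142 and 83.7 TPM in the sham libraries of day 6 and 35.7, 23.2 and 63.6 TPM in the CAP-treated ones. Every CAP-treated library lay below every sham library, as was so for 18% of all tested genes. The mean was 108 ± 30.2 TPM in sham and 40.8 ± 20.7 TPM in CAP-treated wounds (SD, n = 3 each). The log2 difference was -1.49 (SE 0.37, 95% interval -2.37 to -0.62), with an unadjusted p of 0.00494 and a limma adjusted p of 0.206. The exact permutation p was 0.1, the smallest that 3 libraries against 3 can give. Under median-ratio scaling the log2 difference was -1.39, and leaving out each library in turn gave -1.88 to -1.15.

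S100a8 measured 706, 1160 and 591 TPM in sham and 962, 97.9 and 319 TPM in CAP-treated wounds at day 6. S100a9 measured 1135, 1912 and 1015 TPM in sham and 1639, 131 and 652 TPM in CAP-treated wounds. Replicate 1 of the CAP group lay inside the sham range and replicate 2 lay far below it for both calprotectin genes. The log2 differences were -1.34 for S100a8 (SE 0.76, exact permutation p = 0.3, limma adjusted p = 0.356) and -1.33 for S100a9 (SE 0.84, exact permutation p = 0.3, limma adjusted p = 0.401).

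S100a7a, whose human relative is psoriasin, measured 27.5, 29.8 and 18.2 TPM in sham and 26.1, 6.18 and 8.67 TPM in CAP-treated wounds. Its log2 difference was -1.13 (SE 0.51, exact permutation p = 0.2, limma adjusted p = 0.278). Without replicate 1 of the CAP group, S100a8, S100a9, S100a7a, Defb3 and Slpi were all past the threshold, 5 genes in place of 1, beside 4.4% of all genes tested without it. With that library in, S100a8, S100a9 and S100a7a had 1 CAP-treated library inside the sham range. Leaving out each library gave log2 differences of -2.15 to -0.50 for S100a8, -2.16 to -0.33 for S100a9 and -1.74 to -0.70 for S100a7a. Without replicate 2 of the CAP group, Slpi was the 1 gene past the threshold, beside 1.69% of all genes tested without it.

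Lcn2 was the most uneven of these genes at day 6. It measured 173, 349 and 265 TPM in sham and 139, 14.8 and 281 TPM in CAP-treated wounds. CAP replicate 3 stood within the sham range and replicate 2 at 0.0703 of the mean of its group's other libraries. The log2 difference was -1.59 (SE 0.996, exact permutation p = 0.3, limma adjusted p = 0.395). It went from -0.35 without replicate 2 to -2.47 without replicate 3, which was past the threshold, as were 8.17% of all genes tested without that library.

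Of the 4 beta-defensins, Defb1 and Defb14 had higher means in CAP-treated wounds at day 6, and Defb3 and Defb4 had lower ones. Defb1 measured 27.8, 40.6 and 33.9 TPM in sham and 57.4, 41.5 and 24.1 TPM in CAP-treated wounds at day 6, and Defb14, the mouse relative of human beta-defensin 3, measured 25.4, 32.0 and 23.0 TPM against 40.4, 22.4 and 24.4 TPM. Ranges overlapped for both, and the log2 differences of 0.19 (95% interval -0.54 to 0.93) and 0.08 (95% interval -0.49 to 0.66) were not past the threshold. Defb3 measured 5.25, 28.5 and 7.08 TPM in sham and 10.4, 1.56 and 1.34 TPM in CAP-treated wounds, a log2 difference of -1.82 (SE 0.91, exact permutation p = 0.3, limma adjusted p = 0.310). Defb4 measured 1.27, 2.13 and 0.372 TPM in sham and 2.35 and 0.828 TPM in CAP replicates 1 and 2, and was listed at 0 in replicate 3.

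Camp, the cathelicidin gene, was listed at 0 in 7 of 12 libraries and never exceeded 0.602 TPM. All 3 sham libraries of day 3 were listed at 0, and CAP replicate 3 alone had a value at day 3, 0.207 TPM. At day 6 it was 0.602 and 0.566 TPM in sham replicates 2 and 3, and 0.532 and 0.326 TPM in CAP replicates 1 and 3.

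**Figure D2:**
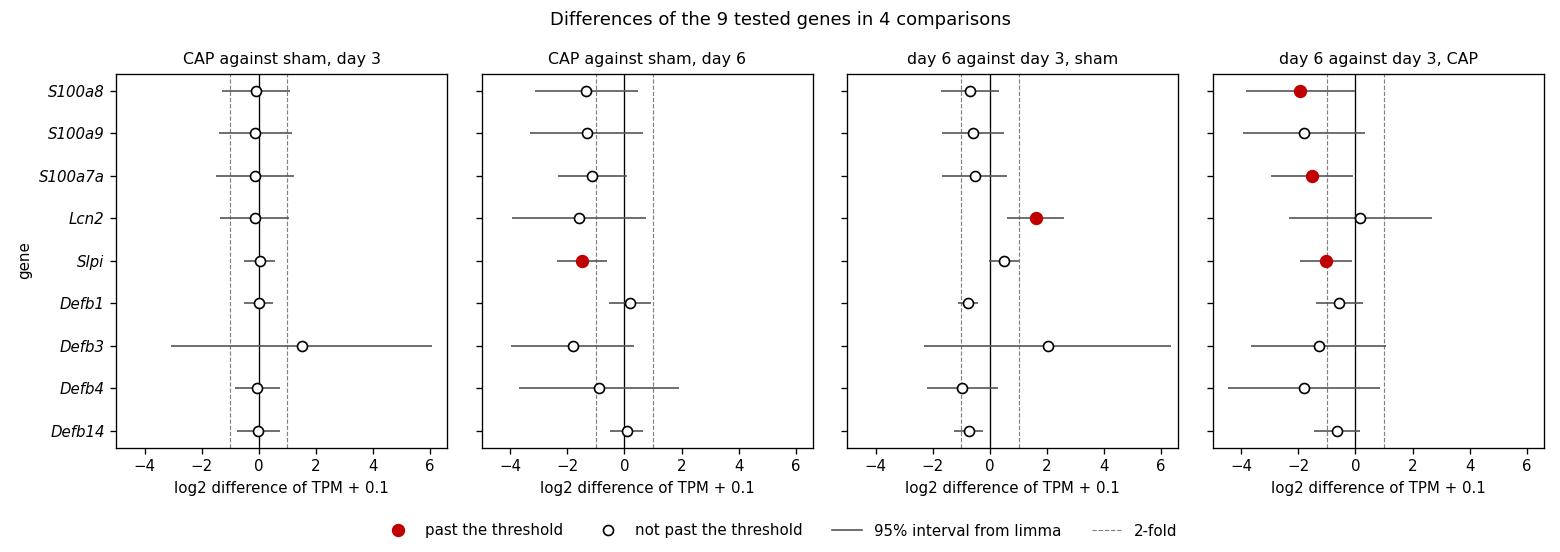
Log2 differences of TPM + 0.1 for the 9 tested genes in 4 comparisons, with 95% intervals from limma, on 3 libraries a group. Filled points passed the threshold: none at day 3, Slpi at day 6, Lcn2 between days in sham, and S100a8, S100a7a and Slpi between days in CAP-treated wounds.

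The course from day 3 to day 6 was compared within each treatment, with the same libraries as above. In sham wounds Lcn2 rose, the only 1 of 9 genes past the threshold, which 3.75% of all 18368 tested genes passed, 2.13% as higher. Its mean was 91.4 ± 42.3 TPM at day 3 and 263 ± 87.9 TPM at day 6 (SD, n = 3 each). All libraries of day 6 lay above all those of day 3, as was so for 10.8% of all tested genes. The log2 difference was 1.60 (SE 0.42, exact permutation p = 0.1, limma adjusted p = 0.117). In a joint fit of all 12 libraries the same difference was not past the threshold (limma adjusted p = 0.521).

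Defb1 and Defb14 were lower at day 6 in every sham library, a pattern found in 10.6% of all tested genes, but by less than 2-fold. Defb1 averaged 57.5 ± 6.34 TPM at day 3 and 34.1 ± 6.41 TPM at day 6 in sham, a log2 difference of -0.76 (SE 0.15, exact permutation p = 0.1, limma adjusted p = 0.0543). Defb14 differed by -0.75 on the log2 scale (exact permutation p = 0.1, limma adjusted p = 0.140). The log2 differences of S100a8, S100a9 and S100a7a were -0.69, -0.61 and -0.53, none past the threshold. Without replicate 2 of the day 3 sham group, the lowest of its group for each of them, all 3 fell, and with Lcn2 4 genes were past the threshold, beside 3.71% of all genes tested without it. Over the omission of each sham library, differences ran from -1.13 to -0.28 for S100a8, -1.10 to -0.18 for S100a9 and -1.05 to -0.0058 for S100a7a. Leaving out replicate 2 of the day 6 sham group added Defb4, 2 genes in all, beside 4.06% of all genes.

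In CAP-treated wounds S100a8, S100a7a and Slpi fell from day 3 to day 6, 3 of 9 genes beside 2.79% of all 18202 tested genes in either direction and 1.52% as lower. The mean of S100a8 was 1278 ± 570 TPM at day 3 and 460 ± 449 TPM at day 6, and the log2 difference was -1.93 (SE 0.81, exact permutation p = 0.2, limma adjusted p = 0.432). Its unadjusted limma p, 0.0499, was just inside the threshold. S100a7a differed by -1.53 (SE 0.60, exact permutation p = 0.2, limma adjusted p = 0.407) and Slpi by -1.03 (SE 0.38, exact permutation p = 0.2, limma adjusted p = 0.386). The ranges of the days overlapped for all 9 genes, where 17.7% of tested genes had none in common. S100a9 differed by -1.80 (SE 0.90, exact permutation p = 0.2, limma adjusted p = 0.484).

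These calls rested on single libraries. Leaving out replicate 1 or replicate 2 of the CAP group of day 3 left 0 of the genes past the threshold, beside 3.31% and 2.15% of all genes tested. Leaving out replicate 1 of day 6 gave 5, S100a8, S100a9, S100a7a, Defb3 and Defb4 but not Slpi, beside 2.82% of all genes. Without replicate 2 of day 6, Lcn2 was the 1 gene past the threshold, as higher (log2 difference 1.41), beside 2.1% of all genes, and without replicate 3 of day 6, Slpi was the 1 gene left, beside 4.91%.

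The difference between the CAP effects of the days was tested in all 12 libraries. Slpi had a log2 CAP effect of 0.03 at day 3 and -1.49 at day 6, and the difference of -1.52 (SE 0.48, limma adjusted p = 0.428) passed the threshold, as 4.9% of all 20267 tested genes did, 2.73% as lower. The other 9 genes did not pass. Without replicate 1 of the CAP group of day 6, S100a8 passed too (log2 -2.05, limma adjusted p = 0.542), beside 4.77% of all genes. No gene of the set had a limma adjusted p under 0.05 in any of the 5 comparisons. Of all tested genes 0.0164% and 0% had one between treatments at day 3 and day 6, 2.29% between days in sham, 0.00549% between days in CAP-treated wounds and 0% for the difference of effects. An unadjusted limma p under 0.05 was found for 0 of the 9 genes at day 3, beside 6.6% of all tested genes, and for 1 at day 6, beside 19.2%. Between days it was found for 3 in sham, beside 16%, and for 3 in CAP-treated wounds, beside 11.6%, and the difference of effects had 1 of 10, beside 11.3%.

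S100a8 and S100a9 varied together from library to library, whatever the group. Pearson's r of their log2 levels was 0.99 and Spearman's rho 0.97 over 12 libraries, both with a permutation p of 1e-05, the smallest that 100000 resamples can give, and adjusted p-values over 30 relations of 7.5e-05 and 1e-04. Without CAP replicate 2 of day 6 and sham replicate 1 of day 3, r was 0.98, and with group means removed it was 0.99. The ratio of S100a9 to S100a8 stayed between 1.34 and 2.04, while S100a8 itself spanned 23.1-fold. S100a7a followed S100a8 with an r of 0.96 (rho 0.97, permutation p = 1e-05 for both, adjusted p = 7.5e-05 and 1e-04, r without the same libraries 0.96 and with group means removed 0.92). Lcn2 did not keep to S100a8: its ratio to S100a8 was 0.0515 to 0.0877 in the 6 libraries of day 3 and 0.145 to 0.882 in those of day 6.

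**Figure D3:**
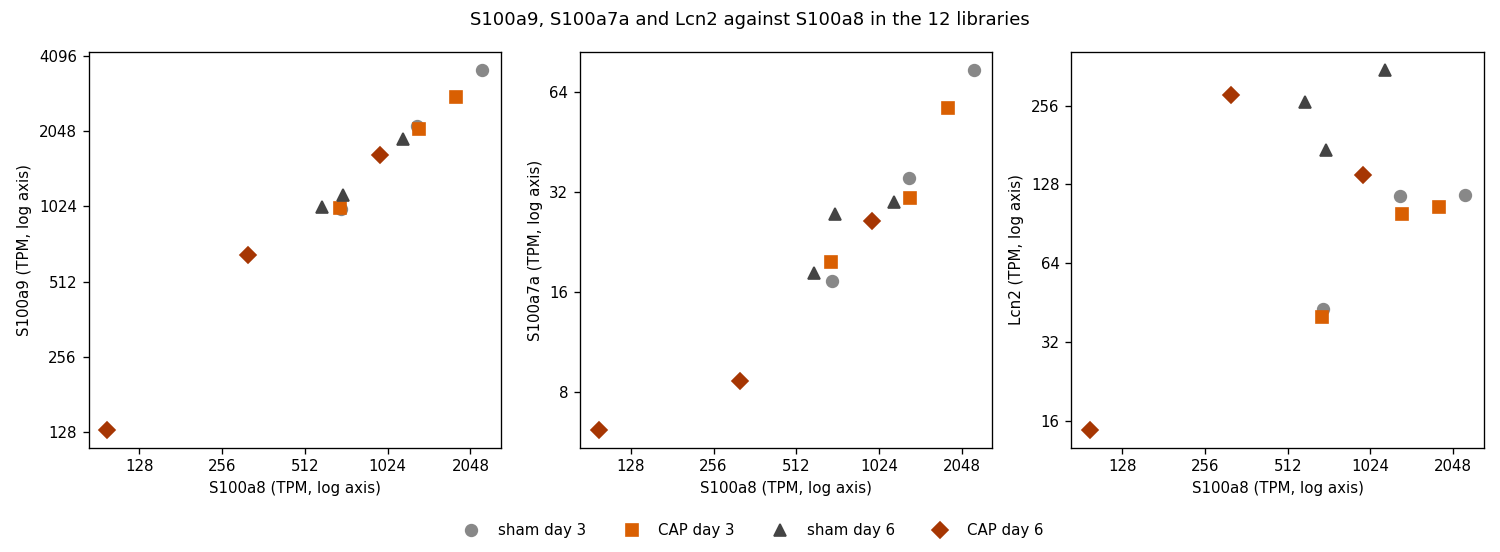
TPM of S100a9, S100a7a and Lcn2 against that of S100a8 in the 12 libraries, on log axes, with a symbol for each group. S100a9 and S100a7a lie along a line with S100a8 (r of 0.99 and 0.96). The ratio of Lcn2 to S100a8 is higher in every library of day 6 than in any of day 3.

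Markers of the cells that could carry these genes moved with some of them. In bulk tissue, fewer cells of a type and less RNA per cell cannot be told apart. Suprabasal keratinocyte genes, Krt1, Krt10, Lor and Flg, were all 4 higher in CAP-treated wounds at day 6, and their summed level was 34563 to 80318 TPM there beside 13051 to 16221 TPM in sham. For 7 neutrophil markers the sum was 54.0 to 244 TPM in CAP-treated and 170 to 265 TPM in sham wounds at day 6, and Trem1 was the 1 of 6 tested that passed, as lower. CAP replicate 2, the lowest library for 6 of the 10 genes, had the lowest neutrophil sum and the highest suprabasal sum of all 12. It also had the fewest genes at 0.3 TPM or more (18533) and the lowest median-ratio scaling factor (0.904). Its 10 most abundant genes held 14.1% of its TPM, the highest share of the 12. The part of this composition in its low values was not tested. Ly6g did not exceed 1.21 TPM, and Mpo and Elane did not exceed 0.318 and 0.0722 TPM, in any library. At day 6 Ly6g was 0.298 to 0.664 TPM in sham and at most 0.161 TPM in CAP-treated wounds. Mpo was then 0.253 to 0.318 TPM in sham and listed at 0 in all 3 CAP-treated libraries, and Elane was listed at 0 throughout. All were below the filter at day 6 and so were not tested. Among the 7 neutrophil markers only Ly6g stayed apart between CAP and sham at day 6. In CAP replicate 3 of day 6, Mmp8 (41.1 TPM) lay above and Csf3r (142 TPM) inside the sham range. Ltf and Ngp, of the other antimicrobial genes, had their highest values of all 12 libraries there, 2.28 and 2.95 TPM. At day 3 Mmp8, a neutrophil collagenase, was the neutrophil marker that passed, as higher (log2 difference 1.99, limma adjusted p = 0.539). The difference between the CAP effects of the days passed for Mmp8 (log2 -3.78, limma adjusted p = 0.428) and Retnlg, 2 of 7 neutrophil markers, both lower, and the same 2 fell from day 3 to day 6 in CAP-treated wounds. Markers of other cells moved too. All 5 erythroid genes were higher in CAP-treated wounds at day 3, Ccr2 of the 7 monocyte and macrophage markers was lower at both days, Myh4 of 5 skeletal muscle genes was lower and Lep of 4 adipocyte genes was higher at day 6. Limma adjusted p-values were 0.0258 to 0.0565 for the erythroid genes, 0.500 and 0.250 for Ccr2, 0.217 for Myh4 and 0.209 for Lep. At day 6 they were 0.254 for Trem1 and 0.205 to 0.206 for the 4 suprabasal genes. No basal keratinocyte, wound keratin or fibroblast marker passed between CAP and sham at either day, nor any hair follicle marker at day 3, and at day 6 none of the 5 hair follicle markers was high enough to be tested. Between days, Mmp8 and all 5 erythroid genes rose and Krt6a, Krt6b and Myh4 fell in sham. In CAP-treated wounds all 4 suprabasal genes rose, and Krt6a, Krt6b, Krt17, Myh4 and Fcgr1, a macrophage Fc receptor gene, fell. The difference between the CAP effects of the days passed for all 4 suprabasal genes, as higher, and for all 5 erythroid genes, as lower. The part of these cells in the differences of Slpi, Lcn2 and the S100 genes was not tested.

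Defb1, Defb4 and Defb14 followed the keratins of wounded epidermis, Krt6a, Krt6b, Krt16 and Krt17. The summed level of these was 17771 to 35460 TPM at day 3 and 6272 to 23102 TPM at day 6. For Defb1, r with the sum was 0.96 and rho 0.95 over 12 libraries (permutation p = 1e-05 and 5e-05, adjusted p = 7.5e-05 and 0.000375). It was 0.94 without CAP replicate 3 and sham replicate 1 of day 6, and 0.96 with group means removed. Defb4 and Defb14 each had an r of 0.85 and a rho of 0.87 (permutation p at most 0.00058, adjusted p at most 0.0029). Without the same libraries r was 0.87 and 0.85, and with group means removed it was 0.87 and 0.68. For Defb3, r was 0.15 (rho 0.27, permutation p = 0.651 and 0.405), and r was 0.01 without these libraries and 0.38 with group means removed. With the sum of Krt5, Krt14, Trp63 and Col17a1, r was 0.90 for Defb1, 0.66 for Defb4, 0.68 for Defb14 and -0.09 for Defb3, without a test. The relation of Defb1, Defb4 and Defb14 was thus not particular to the wound keratins, though r was higher with them. Their r with the suprabasal sum was -0.12, -0.32 and -0.44. All TPM values of a library share 1 total, so these relations are not between independent amounts. The permutation p-values of relations came from shuffling the 12 libraries across groups. They therefore also reflect shifts between groups that both levels share, and no p was computed with group means removed.

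Slpi followed the neutrophil sum with an r of 0.79 (rho 0.66, permutation p = 0.00228 and 0.0210, adjusted p = 0.00977 and 0.0788). Without CAP replicates 1 and 2 of day 6 r was 0.34, so the relation rested on those libraries, and with group means removed it was 0.76. Against the suprabasal sum r was -0.75 for Slpi (rho -0.48, permutation p = 0.00662 and 0.114, adjusted p = 0.0183 and 0.189) and -0.77 for S100a8 (rho -0.50, permutation p = 0.00545 and 0.0970, adjusted p = 0.0182 and 0.189), and without the same libraries it was -0.12 and -0.67. With group means removed these were -0.35 and -0.55. Against the wound keratins the r of Slpi was 0.17 (rho 0.11, permutation p = 0.609 and 0.732), and without CAP replicate 3 and sham replicate 1 of day 6 r was 0.33, and with group means removed 0.037. S100a8 followed the wound keratin sum with an r of 0.70 and a rho of 0.73 (permutation p = 0.00731 and 0.00835, adjusted p = 0.0183 and 0.0358), and r was 0.72 without the same libraries and 0.59 with group means removed. With the neutrophil sum, r was 0.58 for S100a8 (rho 0.48, permutation p = 0.0485 and 0.120, adjusted p = 0.0856 and 0.189) and 0.62 for Lcn2 (rho 0.43, permutation p = 0.0287 and 0.169, adjusted p = 0.0574 and 0.254). Without CAP replicates 1 and 2 of day 6 these were 0.23 and 0.47, and with group means removed 0.46 and 0.73. Against the monocyte and macrophage sum, r was 0.33 for S100a8, 0.59 for Lcn2 and 0.48 for Slpi, without a test.

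**Figure D4:**
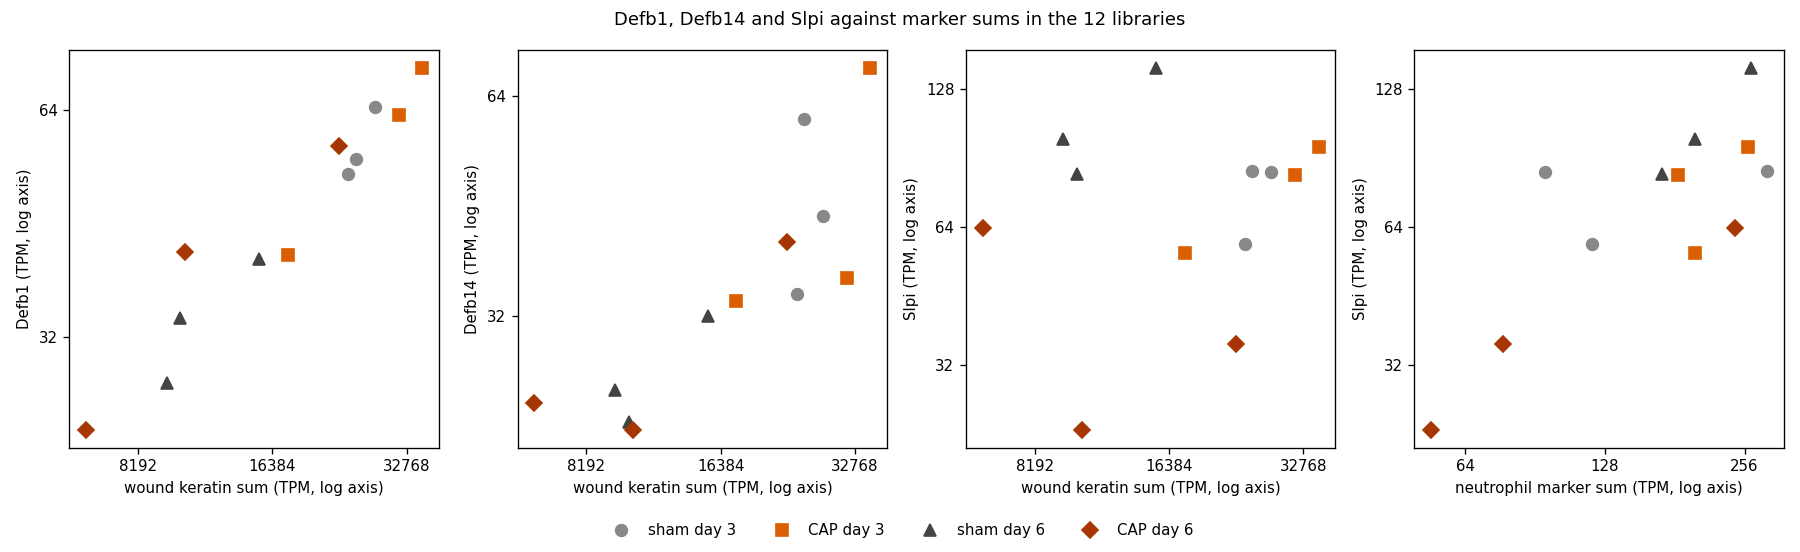
TPM of Defb1, Defb14 and Slpi against the summed TPM of the wound keratins, and of Slpi against the summed neutrophil markers, in 12 libraries on log axes. Defb1 and Defb14 follow the wound keratins (r of 0.96 and 0.85), Slpi does not (r of 0.17), and 2 CAP-treated libraries of day 6 lie low on the neutrophil axis.

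The genes most like each gene over the 12 libraries were taken from 14013 genes that averaged 1 TPM or more, by Pearson's r of log2 levels, as a description. Next to S100a9, S100a8 was most like Il33 (r = 0.96), the alarmin cytokine, and Csta3 (0.96). S100a7a was most like Sprr2i (0.97) and Sprr2d (0.95), genes of cornified envelope precursors, with S100a8 between them. Defb1 was most like Krt16 (0.98), Rbp2 (0.97) and Serpinb6c (0.97), and Defb4 most like Sprr2a3 (0.96), Serpina9 (0.96) and Fetub (0.93). Defb14 was most like Areg (0.92), which encodes the EGF receptor ligand amphiregulin, Klk10 (0.91) and Fam162a (0.90). Lcn2 was most like Adamts9 (0.93), Hlx (0.92) and Ccbe1 (0.92), and Slpi most like Sirt6 (0.94), Star (0.93) and Mirt1 (0.93). S100a9 was, after S100a8, most like Slc16a6 (0.95) and Ankk1 (0.94). Defb3 was most like Tmem68 (0.89), Lce3b (0.85) and Swt1 (0.83), and Camp most like Cttnbp2nl (0.89), Zhx1 (0.89) and Apmap (0.88).

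Of 10 tested other S100 genes, 0 passed the threshold at either day between CAP and sham, and their summed level was 2386 to 3489 TPM in all libraries. S100a4 fell from day 3 to day 6 in sham (log2 difference -1.01, limma adjusted p = 0.0170) and in CAP-treated wounds (log2 difference -1.21, limma adjusted p = 0.280). Of 11 other beta-defensins, 10 were listed at 0 in every library, and Defb6 was at 35.3 to 162 TPM with no call. Of the other antimicrobial genes, Retnla was lower at day 3 (log2 difference -3.08, limma adjusted p = 0.732) and Nos2, inducible nitric oxide synthase, at day 6 (log2 difference -2.39, limma adjusted p = 0.229), each the 1 gene past the threshold among 12 and 15 tested. Retnla was listed at 0 in CAP replicate 2 of day 3. It fell between days in sham (log2 difference -3.06, limma adjusted p = 0.0146), and Chil3, a chitinase-like gene of macrophages, fell between days in CAP-treated wounds (log2 difference -3.03, limma adjusted p = 0.405). The difference between the CAP effects of the days passed for 4 of 15 of these antimicrobial genes, higher for Retnla (log2 4.18) and lower for Reg3g (log2 -4.33), Chil3 (log2 -3.29) and Lyz2 (log2 -1.15), with limma adjusted p-values of 0.428 to 0.440. Reg3g was listed at 0 in CAP replicate 2 of day 6, so its value depends on the added 0.1 TPM. Among 10 other alarmins, Il1f8 was higher in CAP-treated wounds at day 6 (log2 difference 1.10, limma adjusted p = 0.212), and 0 passed at day 3. Between days in CAP-treated wounds Il33 fell (log2 difference -1.20, limma adjusted p = 0.351) and Il1f6 rose (log2 difference 1.57, limma adjusted p = 0.236). S100a1 rose between days in sham (log2 difference 1.02, limma adjusted p = 0.0227).

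Of 17 tested inducers of these genes, 0 passed at day 3, and Il6 (log2 difference -1.66, limma adjusted p = 0.212) and Osm (log2 difference -1.38, limma adjusted p = 0.238), which encodes oncostatin M, were lower in CAP-treated wounds at day 6. The median log2 difference of the 17 at day 6 was -0.32. The study, with another test, listed IL-6 among its downregulated genes at day 3. It also reported weaker IL-6 staining in CAP-treated wounds, and less IL-6 mRNA with CAP in cultured fibroblasts given TNF-α. The RNA levels here measure neither of these. In the limma fit Il6 differed by -0.75 at day 3 (SE 0.55, limma adjusted p = 0.874), not past the threshold. Il22 was listed at 0 in all libraries, Il17a did not exceed 0.396 TPM and Il17f did not exceed 0.247 TPM. In sham wounds Tnf, Osm and Il1b rose from day 3 to day 6, by 1.15, 1.34 and 1.45 on the log2 scale, and Cebpe fell by 1.23. Their limma adjusted p-values were 0.0531, 0.150, 0.255 and 0.234. In CAP-treated wounds none of the 17 passed between the days.

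Of 7 tested receptors, among them Tlr4, Tlr2 and Ager, which encodes RAGE, 0 passed between CAP and sham at either day, and the median log2 difference was -0.04 at day 3 and -0.53 at day 6. The most abundant of them was Bsg, at 501 to 773 TPM, which encodes the S100A9 receptor basigin. Of 5 tested proteases and inhibitors, Klk5, a protease that processes cathelicidin, was higher in CAP-treated wounds at day 6 (log2 difference 1.20, limma adjusted p = 0.205), and Mmp9, which lipocalin 2 binds, was lower (log2 difference -1.19, limma adjusted p = 0.205). In the difference between days both passed, at 1.09 for Klk5 and -1.42 for Mmp9 on the log2 scale (limma adjusted p = 0.428 for both). Mmp9 rose in sham from day 3 to day 6 by 1.29 on the log2 scale (limma adjusted p = 0.0435), as Lcn2 did.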

How the data were processed

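RNA of 12 skin wound libraries was sequenced, in 4 groups of 3 set by treatment and day in the labels. The authors used bcl2fastq, Trimmomatic 0.36 and StringTie on mm10, and deposited TPM per gene, 1 table per library. For the aligner, annotation release and strand setting, nothing was stated. There were 0 other columns of per-sample values. The design had allowed for counts, and since the tables hold TPM, its limma branch was used.

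TPM carries no depth, so precision rests on the spread between libraries. Genes averaging 0.3 TPM or more in each group were fitted on log2(TPM + 0.1) with limma 3.58.1 in R 4.3.3 (intensity trend, not robust). The test between the CAP effects took genes that did so in 1 or more groups. P-values were adjusted by Benjamini-Hochberg over all genes tested. Past the threshold means an unadjusted p under 0.05 and at least a 2-fold difference. A two-sided exact permutation test over libraries stood beside it, with 0.1 as the smallest p. Correlations used 100000 resamples that shuffled all 12 libraries without regard to group. The fit was tested on simulated data. Positions are from GENCODE M21, whose coordinates 54814 genes had, and promoters from RefSeq.

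The 10 genes and the 7 related gene lists and 10 marker lists were chosen with earlier results of these data known. Named from the lists are genes past the threshold (up to 6 of smallest p per list and comparison), and, in part, the most abundant members of lists with none. The rest are given as counts. Receptors, cytokines, Ly6g, Mpo and Elane below the filter, and Csf3r, Ltf and Ngp, were named after their values were seen. For each of the 10 genes the 3 most similar genes by r are named. Alternatives were other pseudocounts and filters, median-ratio scaling, a replicate block, a joint fit and leaving out each library. No 2 libraries held the same values.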

Additional observations from a re-analysis of the deposited data

Results flagged for a closer look

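The CAP effect on Slpi differed between the days by a test of the difference itself. The log2 difference between CAP-treated and sham wounds was 0.03 at day 3 and -1.49 at day 6, and the difference of -1.52 had an SE of 0.48, a 95% interval of -2.59 to -0.46, an unadjusted p of 0.00923 and a limma adjusted p of 0.428. All 3 CAP-treated libraries lay below all 3 sham libraries at day 6, and the ranges overlapped at day 3. Over 17 alternatives the value stayed between -1.90 and -1.18 and past the threshold, with limma adjusted p-values of 0.102 to 0.686.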

How the results depend on the processing

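Only the difference of Slpi at day 6 and that between its CAP effects of the days passed the threshold under every alternative. No member passed at day 3 in any setting. Counts of genes past the threshold that moved by over 1.5 times were these. CAP against sham at day 6 gave 1, and 1 to 5 when each library was left out. Day 6 against day 3 gave 1 in sham, 0 in the joint fit, and 1 to 4 with a library left out. In CAP-treated wounds it gave 3, with 1 without the filter, 1 under median-ratio scaling, and 0 to 5 with a library left out. The difference between the CAP effects of the days gave 1, and 1 to 2. The joint fit shares 1 spread over all groups, and fewer libraries weaken a test. Other causes were not tested. Leaving out CAP replicate 3 of day 6 gave Slpi a limma adjusted p of 0.0307, over a range of 0.0307 to 0.470.

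By replicate number the libraries showed no clear pairing: of 12 same-numbered pairs 1 had a correlation of deviations over 0.1 (range -0.11 to 0.20). This check, on 3 libraries a group, cannot exclude pairing or a shared batch. With the numbers as a replicate block, 2 genes passed at day 6 (S100a7a added), 1 between days in CAP-treated wounds and 1 in sham, where Defb1 had a limma adjusted p of 0.0391.

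Signs turned in 37 single log2 differences, none of them past the threshold as reported above. For CAP against sham at day 3, Defb1 was 0.00027 with 1 TPM added and 0.057 under median-ratio scaling, and Defb14 was 0.031 under that scaling. All other turns came from leaving out a library, with these ranges. At day 3 they were -0.54 to 0.31 for S100a8, -0.62 to 0.30 for S100a9, -0.65 to 0.40 for S100a7a, -0.64 to 0.30 for Lcn2, -0.15 to 0.25 for Slpi, -0.17 to 0.24 for Defb1, -0.84 to 2.90 for Defb3, -0.27 to 0.31 for Defb4 and -0.36 to 0.18 for Defb14. At day 6 they were -0.091 to 0.53 for Defb1, -1.89 to 0.41 for Defb4 and -0.18 to 0.24 for Defb14. Between days they were -0.31 to 3.42 for Defb3 in sham and -0.71 to 1.41 for Lcn2 in CAP-treated wounds, which was past the threshold at its highest. For the difference of effects they were -0.091 to 0.53 for Defb1, -1.83 to 0.47 for Defb4 and -0.16 to 0.44 for Defb14. Depth is unknown, and 3 libraries a group limit what can be detected.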
